A study of Mus musculus with 12 samples.

Results

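Slc7a3, Car6, Rhox5, Ambp, Hmga2 and Rap1gap, genes with no known part in muscle contraction that were low in irradiated mouse tumours, were followed across every RNA of the study. They are 6 of the 27670 genes or other features on the array, and were chosen from their ratios in the irradiated primaries over the unirradiated primary. Every spot that carried one of these gene names was used, which gave 9 of the 41174 probes: 3 for Hmga2, 2 for Rap1gap and 1 for each of the other 4 genes. Of 15284 genes measured in both comparisons, which share the unirradiated primary RNA, 95 fell in both (48.5% of those that fell after gamma rays and 56.5% of those after carbon ions), and by the mean of the 2 ratios the members hold ranks 1, 2, 3, 5, 6 and 8 among them. Just outside stand Fam160a1 at rank 7 (-2.21 in the mean of both) and Tspan12 at rank 9 (-2.13), beside Rap1gap at -2.18, and the muscle gene Sln is at rank 4. The low ratios in the 2 irradiated primaries are therefore a description of how the genes were picked and support nothing.

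The tumour was NR-S1, a transplantable squamous cell carcinoma with a high rate of lung metastasis, grown in the hind leg of male C3H/HeMsNrs mice whose age the labels do not give. Leg tumours received 8 Gy of gamma rays, 5 Gy of carbon ions or no irradiation once they measured 7.5 mm across. Leg tumours were removed after 1 week, lungs with metastases after 2 weeks and from separate mice, and the metastases themselves had not been irradiated. The 6 RNAs were thus the gamma-irradiated primary, the carbon-irradiated primary, the gamma-group metastasis, the carbon-group metastasis, the unirradiated metastasis and the unirradiated primary, each from laser-microdissected tumour cells and each marked as clone 1. The labels give 1 RNA for each condition and do not say how many animals it came from, so no difference had a biological replicate and no p-value was computed.

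The RNAs were hybridised in pairs to 12 two-colour Agilent arrays, and each pair was run with the dyes in both orientations. The 5 other RNAs each met the unirradiated primary, and the 2 irradiated primaries also met each other directly. A log2 ratio is the mean of the 2 orientations with their SD, n = 2 arrays of the same RNAs. A gene fell or rose where the ratio of each of the 2 orientations was at least 1 in size, a 2-fold difference, and both had the same sign. In each channel 53.8% to 68.8% of all spots exceeded background clearly, and the brightest probe of every member was so in every channel. The squamous label was checked on 29 keratinocyte markers, of which 28 were well above background in every channel of each irradiated primary, 29 in the gamma-group metastasis, 27 in the carbon-group metastasis and 26 in the unirradiated metastasis and the unirradiated primary. Over the unirradiated primary 3 fell and none rose after gamma rays (median 0.08), and 3 fell and 1 rose after carbon ions (median 0.14). Trp63, a squamous master regulator, stood at 0.21 ± 0.14 and 0.36 ± 0.06. The markers that fell after both included Sprr1b (-1.42 and -1.36) and Krt19 (-1.585 and -1.448). The metastases carried lung RNA as well: of 17 lung epithelial markers 15 rose in the gamma-group metastasis, 15 in the carbon-group metastasis and 14 in the unirradiated metastasis, each over the unirradiated primary. Other genes moved in the same RNAs: 19 of 20 genes induced by interferon were up after gamma rays and 20 of 20 after carbon ions, and T cell and natural killer cell markers rose too (5 of 13 and 8 of 14). In such dissected tissue, fewer cells of a type and less RNA per cell cannot be told apart.

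The 6 genes have unrelated tasks. Slc7a3 encodes a cationic amino acid transporter that brings arginine, lysine and ornithine into cells, and Car6 the secreted carbonic anhydrase best known from saliva. Ambp encodes a precursor that is cut into the lipocalin alpha-1-microglobulin and the protease inhibitor bikunin, and is known as a product of the liver. Rhox5 is a homeobox gene of the reproductive cluster on the X chromosome, known from testis, placenta and tumour cell lines. Hmga2 is an AT-hook protein that bends DNA in embryonic chromatin, is repressed by let-7 microRNAs after birth and returns in many carcinomas. Rap1gap switches off the small GTPase Rap1, which controls integrin adhesion and cell junctions.

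The stretch around the transcription start is shown for 4 of the genes, because members that are low together may be compared for shared sequence there. The 300 bases run from 250 before to 50 after the start in RefSeq's mouse assembly GRCm38.p6 and are written 5′ to 3′ on the strand of the gene. Capitals mark any of 7 motifs found on either strand.
Car6, chr4:150201086-150201385, minus strand: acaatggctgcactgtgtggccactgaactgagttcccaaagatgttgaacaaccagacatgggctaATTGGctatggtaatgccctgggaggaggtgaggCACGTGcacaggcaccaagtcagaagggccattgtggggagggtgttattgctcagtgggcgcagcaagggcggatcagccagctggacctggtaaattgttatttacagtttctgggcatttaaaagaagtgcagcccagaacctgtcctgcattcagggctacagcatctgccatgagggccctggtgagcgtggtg
Rap1gap, the first of 7 annotated starts, chr4:137664476-137664775, plus strand: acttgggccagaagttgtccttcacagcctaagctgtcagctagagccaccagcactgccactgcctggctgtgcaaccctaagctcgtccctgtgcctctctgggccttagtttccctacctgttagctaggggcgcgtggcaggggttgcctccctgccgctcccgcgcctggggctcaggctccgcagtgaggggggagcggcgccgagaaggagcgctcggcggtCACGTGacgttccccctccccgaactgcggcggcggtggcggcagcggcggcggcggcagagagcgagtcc
Rhox5, chrX:37754358-37754657, plus strand: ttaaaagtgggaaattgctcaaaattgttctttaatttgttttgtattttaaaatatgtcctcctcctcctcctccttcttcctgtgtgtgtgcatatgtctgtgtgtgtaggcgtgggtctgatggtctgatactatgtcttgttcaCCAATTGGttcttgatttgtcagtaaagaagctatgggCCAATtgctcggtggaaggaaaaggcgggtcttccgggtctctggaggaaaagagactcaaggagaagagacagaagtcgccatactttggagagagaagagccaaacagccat
Ambp, chr4:63154123-63154422, minus strand: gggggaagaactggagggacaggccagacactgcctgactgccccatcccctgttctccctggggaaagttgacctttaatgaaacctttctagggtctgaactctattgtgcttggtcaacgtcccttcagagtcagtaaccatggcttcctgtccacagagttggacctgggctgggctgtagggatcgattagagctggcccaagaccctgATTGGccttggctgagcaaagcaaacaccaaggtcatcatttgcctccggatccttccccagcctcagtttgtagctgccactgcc

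The motifs were the core of the interferon-stimulated response element, TTCNNNGAA (the GAS element bound by STAT factors), ACGTG (the hypoxia response core), TGATGNAA (a C/EBP-ATF element), CACGTG (an E-box, which contains ACGTG on both strands), TATAAA and CCAAT. The E-box stood in the Car6 window at position -149 from the start and in 2 overlapping windows of Rap1gap, at -21 in the one shown, and 7.2% of all 32851 promoter windows held it. CCAAT, held by 37.4% of windows, stood at 1 place in Car6, 1 in Ambp and 3 in Rhox5. None of the windows of the 5 members in RefSeq's table held the interferon-stimulated element, TTCNNNGAA, TGATGNAA or TATAAA, which 3.4%, 8.3%, 4.0% and 13.6% of all windows held. The Hmga2 window, chr10:120476420-120476719 on the minus strand, held none of the 7. The windows also differed in CpG content, with 25 CpG pairs in the Rap1gap window shown, 12 in Hmga2, 5 in Rhox5, 4 in Car6 and 3 in Ambp, against a median of 7 over all windows. No motif was present in all 4 of the windows printed.

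In the irradiated primaries all 6 members fell, as their choice required. Among all measured genes 1.26% fell in the gamma-irradiated primary and 1.07% in the carbon-irradiated primary, while 2.23% and 3.91% rose. Slc7a3, the arginine carrier, gave a processed signal of 53.6 to 161 in the gamma-irradiated primary (median 67.7 over 4 channels) and 84.7 to 184 in the carbon-irradiated primary (median 120), against 1596 to 2852 in the unirradiated primary (median 2089 over 10 channels). Its log2 ratio over the unirradiated primary was -3.34 with the gamma-irradiated RNA in Cy5 and -3.75 with it in Cy3, and -3.44 and -3.42 for the carbon-irradiated RNA. No channel of an irradiated primary reached the lowest channel of the unirradiated primary. These channels repeat the same RNAs, whose values chose the members, and the share of all genes with such a gap was not computed. The normexp offset of 50 pulls ratios of dim spots toward 0, and Agilent's processed log ratio, which has no such offset, put Slc7a3 further down (-4.24 for gamma rays).

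**Figure D1:**
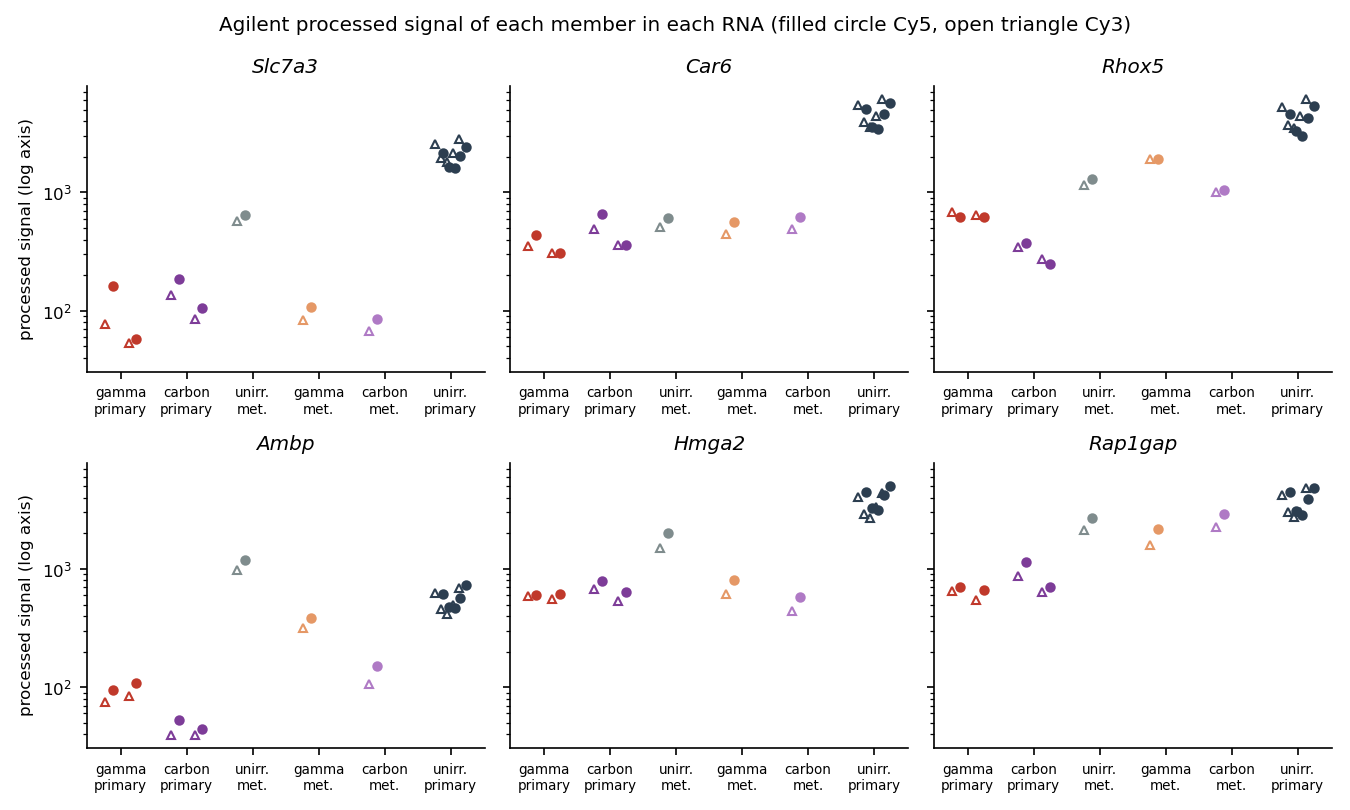
Agilent processed signal (log axis) of the brightest probe of each member in the 6 RNAs, one point per channel, filled circles for Cy5 and open triangles for Cy3. Unirradiated primary points lie above all points of both irradiated primaries in every panel, and values of these RNAs had chosen the members. The share of all genes with such a gap was not computed. The metastases lie between these primaries or apart from them in a way that differs by gene.

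Car6, the secreted carbonic anhydrase, had signals of 305 to 437 in the gamma-irradiated primary and 357 to 660 in the carbon-irradiated primary, against 3458 to 6166 in the unirradiated primary. Its ratios were -3.13 and -3.40 after gamma rays (mean -3.26 ± 0.19) and -2.99 and -3.24 after carbon ions (mean -3.12 ± 0.17). The channels of the irradiated and unirradiated primaries did not overlap, a gap that the choice of the members favoured and whose share over all genes was not computed. The means after gamma rays and carbon ions differed by less than their SDs. Ambp, the bikunin precursor, gave 74.4 to 108 in the gamma-irradiated primary and 39.2 to 52.5 in the carbon-irradiated primary, against 418 to 727 in the unirradiated primary. Ambp stood at -1.96 ± 0.29 after gamma rays and -2.50 ± 0.07 after carbon ions, and Agilent's processed log ratio gave -2.66 and -3.95. Mean signals of Ambp after carbon ions, before background correction, were 86.2 to 113, where the median local background per channel was 43 to 62. The offset weighs most on such dim spots.

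Rhox5, the homeobox gene, gave 620 to 678 in the gamma-irradiated primary and 247 to 374 in the carbon-irradiated primary, against 3021 to 6153 in the unirradiated primary. Its ratios were -2.68 and -2.49 after gamma rays (mean -2.58 ± 0.13) and -3.71 and -3.54 after carbon ions (mean -3.63 ± 0.12). Signals of Rhox5 and Ambp were lower in every channel of the carbon-irradiated primary than in any of the gamma-irradiated primary. These channels repeat the same 2 RNAs, and the share of all genes with such a gap was not computed. Hmga2, the embryonic chromatin protein, gave 560 to 619 in the gamma-irradiated primary and 531 to 793 in the carbon-irradiated primary, against 2718 to 5067 in the unirradiated primary. Hmga2 stood at -2.49 ± 0.23 after gamma rays and -2.46 ± 0.26 after carbon ions. Rap1gap, the Rap1 inactivator, gave 551 to 697 in the gamma-irradiated primary and 643 to 1155 in the carbon-irradiated primary, against 2773 to 4847 in the unirradiated primary, with ratios of -2.23 ± 0.31 and -2.12 ± 0.25.

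Probes of one gene did not give the same size. For Hmga2 the probe A_52_P300730 is the brightest, and a second, A_51_P288315, gave -2.16 after gamma rays and -2.18 after carbon ions. The third, A_52_P373357, designed on the transcript AK035164, gave -0.40 and -0.36. It was well above background in 0 of 4 channels of the gamma-irradiated primary and there it was at least 1.32-fold lower than in the unirradiated primary, a bound that sets the dim RNA, per array, to the higher of its own signal and the lowest signal well above background, which here was its own. The second Rap1gap probe, A_52_P205363, gave -0.78 after gamma rays and -0.78 after carbon ions, and was at least 1.72-fold lower in the gamma-irradiated primary by the same bound. The array files do not hold probe sequences, so whether the dim probes read the same transcripts was not tested. With the mean over all probes Hmga2 stood at -1.68 and -1.67 and Rap1gap at -1.51 and -1.45, both still lower than -1.

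Beyond the size of the fall, the ratios ranked the members in a different order after each radiation type. In the gamma-irradiated primary Slc7a3 was the lowest member, at rank 2 among the 196 genes that fell, followed by Car6 (3), Rhox5 (8), Hmga2 (11), Rap1gap (20) and Ambp (44). In the carbon-irradiated primary Rhox5 was rank 1 among the 168 that fell, followed by Slc7a3 (2), Car6 (3), Ambp (4), Hmga2 (5) and Rap1gap (10). Both comparisons share the unirradiated primary RNA, so a high value in that RNA alone would lower every member in both. On the arrays that held both irradiated RNAs and not the shared one, the carbon-irradiated primary stood at -1.14 and -0.97 against the gamma-irradiated primary for Rhox5 (mean -1.06 ± 0.12), just short of the rule. Ambp stood at -0.57 ± 0.20, Slc7a3 at 0.39 ± 0.25, Car6 at 0.18 ± 0.06, Rap1gap at 0.16 ± 0.26 and Hmga2 at -0.002 ± 0.238. No member passed, where 0.16% of measured genes fell and 0.884% rose, and Rhox5 counts as lower with an offset of 0, with Agilent's processed log ratio or with scaling between arrays.

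The direct ratio can be set against the same ratio taken through the unirradiated primary, which measures array error without replicates. The 2 routes differed by 0.03 for Car6, -0.01 for Rhox5, -0.03 for Ambp, -0.03 for Hmga2 and 0.05 for Rap1gap, where all 14831 genes had an SD of 0.067. Slc7a3 differed by 0.27, beyond the 0.131 that 95% of genes stayed within. Through the unirradiated primary the carbon-irradiated primary stood at 0.11 over the gamma-irradiated primary for Slc7a3, and at -1.04 for Rhox5.

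**Figure D2:**
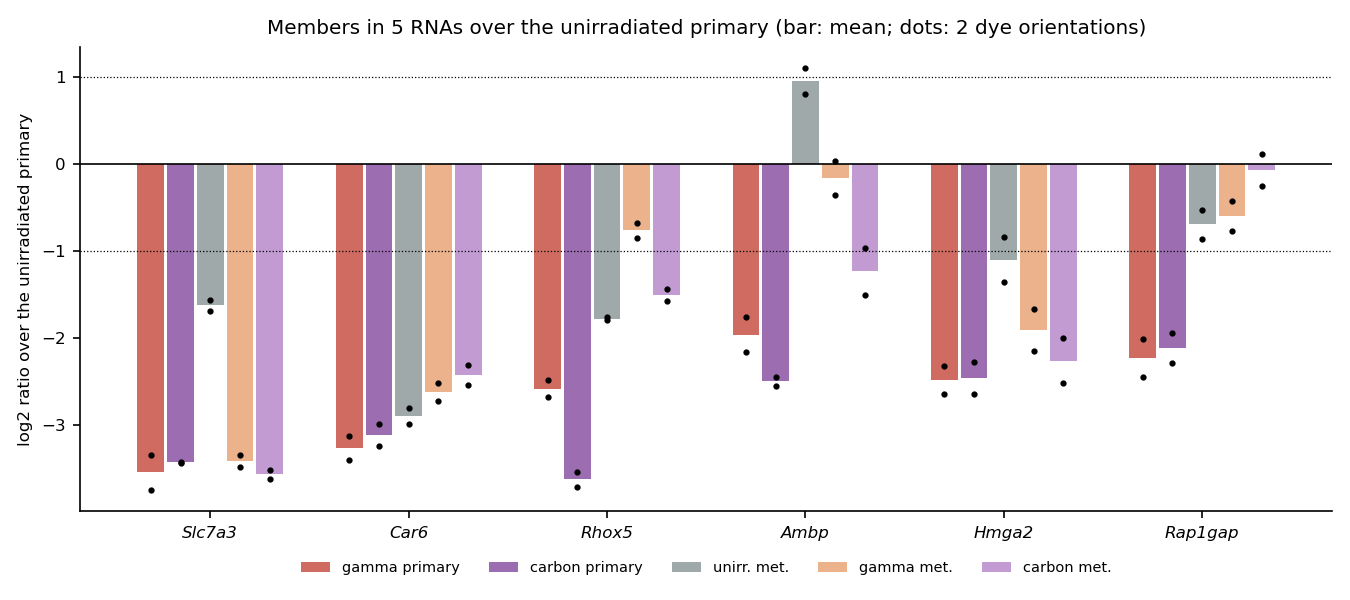
Log2 ratio of each member over the unirradiated primary in the gamma-irradiated primary, the carbon-irradiated primary and the 3 metastases, bars for the mean and dots for the 2 dye orientations, with dotted lines at the size needed for a call. Slc7a3 and Car6 are low in all 5 RNAs, Rap1gap is low in the irradiated primaries and near 0 in the carbon-group metastasis, and Ambp is above 0 in the unirradiated metastasis.

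The metastases separated the members. In the unirradiated metastasis over the unirradiated primary 3 of 6 fell, against 1.69% of measured genes, and none rose, against 10.4%, though the unirradiated primary is one of the RNAs whose values chose the members. Car6 stood at -2.80 and -2.99 (mean -2.90 ± 0.13), Rhox5 at -1.80 and -1.76 (-1.78 ± 0.03) and Slc7a3 at -1.69 and -1.56 (-1.62 ± 0.09). Hmga2 at -1.10 ± 0.37 and Rap1gap at -0.69 ± 0.24 did not pass in both orientations. The second Hmga2 probe did, at -1.09 and -1.54 (mean -1.31), and the third stood at -0.29. Ambp alone lay on the other side, at 1.10 and 0.80 (0.95 ± 0.21), with signals of 972 and 1186 in the unirradiated metastasis against 418 to 727 in the unirradiated primary. Its channels, which repeat the same 2 RNAs, did not overlap, and the share of all genes with such a gap was not computed.

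In the gamma-group metastasis over the unirradiated primary Slc7a3 fell by 3.42 ± 0.10, Car6 by 2.62 ± 0.14 and Hmga2 by 1.91 ± 0.35, 3 of 6 where 1.1% of measured genes fell, and none rose, where 8.82% did. The second Hmga2 probe gave -1.95 ± 0.09, but the third ran the other way, at 0.51 and 0.29 (mean 0.40). Rhox5 stood at -0.77 ± 0.12, Rap1gap at -0.60 ± 0.24 and Ambp at -0.16 ± 0.27. In the carbon-group metastasis 4 of 6 fell, against 1.03%, and none rose, against 8.2%, with Slc7a3 at -3.57 ± 0.07, Car6 at -2.43 ± 0.16, Hmga2 at -2.26 ± 0.36 and Rhox5 at -1.50 ± 0.10. Ambp at -1.24 ± 0.38 passed in 1 orientation of 2, and with Agilent's processed log ratio in both (-1.80). Rap1gap stood at -0.07 ± 0.26, closer to 0 than its SD. Both counts were taken over the unirradiated primary, one of the RNAs whose values chose the members, so the choice favoured a fall.

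Ordered from the lowest level, the 6 RNAs fell out differently for each gene. For Slc7a3 the carbon-group metastasis, the gamma-irradiated primary, the carbon-irradiated primary and the gamma-group metastasis lay within 0.15 of one another. Neighbours among them were closer than their combined SDs, and all lay below the unirradiated metastasis and then the unirradiated primary. On the direct arrays, however, the carbon-irradiated primary stood at 0.56 and 0.21 over the gamma-irradiated primary for Slc7a3. By arrays of like orientation, its carbon-group metastasis stood at -0.13 and -0.17 against the gamma-group metastasis. For Car6 all 5 RNAs lay between -3.26 and -2.43, far below the unirradiated primary. For Hmga2 both irradiated primaries and both metastases of irradiated mice lay lowest, each closer to the next than their combined SD, with the unirradiated metastasis and then the unirradiated primary above them. That SD includes dye effects. By like orientation, in which dye effects cancel, Hmga2 in the carbon-group metastasis stood at -0.34 and -0.36 against the gamma-group metastasis. For Ambp the carbon-irradiated primary was lowest and the unirradiated metastasis highest, and only the gamma-group metastasis and the unirradiated primary lay within their SD of each other. For Rhox5 every step exceeded the combined SD: carbon-irradiated primary, gamma-irradiated primary, unirradiated metastasis, carbon-group metastasis, gamma-group metastasis and unirradiated primary. For Rap1gap the 2 irradiated primaries formed the low group, and the carbon-group metastasis and the unirradiated primary did not differ beyond their SD.

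Metastases of irradiated mice over the unirradiated metastasis are the comparison that uses none of the 3 primary RNAs as a term, since the shared unirradiated primary cancels in the difference. After carbon ions 3 of 6 members fell, where 2.37% of measured genes did, and after gamma rays 2 of 6, where 1.4% did. No member rose, where 1.85% of genes did after carbon ions and 1.84% after gamma rays. Slc7a3 fell by 1.94 ± 0.02 in the carbon-group metastasis and by 1.79 ± 0.01 in the gamma-group metastasis, with signals of 67.0 and 85.8 in the carbon-group channels and 82.8 and 108 in the gamma-group channels, against 576 and 640 in the unirradiated metastasis. Ambp fell by 2.19 ± 0.17 in the carbon-group metastasis and by 1.11 ± 0.06 in the gamma-group metastasis, a gamma call lost with scaling between arrays (-1.02), with 107 and 150 in the carbon-group channels and 316 and 385 in the gamma-group channels, against 972 and 1186 in the unirradiated metastasis. Hmga2 fell by 1.16 ± 0.01 in the carbon-group metastasis, a call lost with scaling between arrays (-0.91) and with the mean of all probes (-0.66), and stood at -0.81 ± 0.02 in the gamma-group metastasis. By their brightest probes the 3 genes were lower in both metastases of irradiated mice than in the unirradiated one in both orientations. The second Hmga2 probe stood at -0.87 in the carbon-group metastasis and -0.64 in the gamma-group metastasis. The third, well above background in these RNAs, stood at 0.05 in the carbon-group metastasis and at 0.78 and 0.60 in the 2 orientations of the gamma-group metastasis (mean 0.69), so the probes of Hmga2 disagree in direction there. Macrophage markers fell there too, 4 of 14 in the carbon-group metastasis and 6 of 14 in the gamma-group metastasis, as did 5 of 20 and 8 of 20 interferon response genes, and their part in the members' values was not tested.

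The other 3 members did not fall there. Car6 stood at 0.28 ± 0.01 in the gamma-group metastasis and 0.47 ± 0.03 in the carbon-group metastasis, each over the unirradiated metastasis. Rhox5 stood at 1.01 ± 0.09 and 0.27 ± 0.07, the first with one orientation at 0.95 and the other at 1.08. Rap1gap stood at 0.10 ± 0.01 and 0.62 ± 0.02, of which the gamma value turned to -0.09 with median centring in place of loess and to -0.06 with the mean of all probes. Gamma-group and carbon-group arrays lay on different slides, and the gamma-group and unirradiated metastasis arrays on the same one, so slide and comparison cannot be told apart in the carbon value. Between the carbon-group and the gamma-group metastasis no member passed, where 1.07% of measured genes fell and 0.239% rose: Ambp stood at -1.07 ± 0.11, with one orientation at -0.999 just short of the rule, and the other 5 between -0.74 and 0.52.

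**Figure D3:**
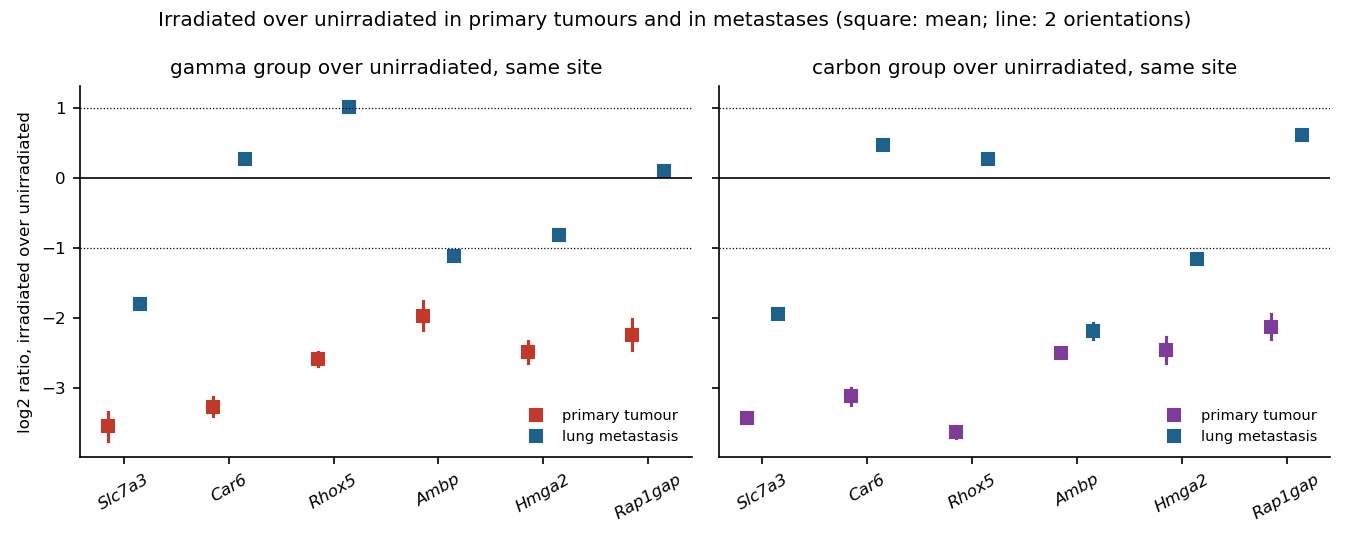
Log2 ratio of the irradiated group over the unirradiated RNA at the same site, for gamma rays on the left and carbon ions on the right. The metastases themselves had not been irradiated. Squares give the mean and lines span the 2 orientations. By the brightest probes, Slc7a3, Ambp and Hmga2 lie below 0 in primary tumours and metastases alike, while Car6, Rhox5 and Rap1gap lie below 0 in primary tumours and above 0 in metastases.

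The last pair of comparisons set each metastasis against the primary of the same radiation type, with the primary being the RNA in which the members had been picked as low. In the gamma-group metastasis over the gamma-irradiated primary Rhox5 rose by 1.82 ± 0.02, Ambp by 1.80 ± 0.01 and Rap1gap by 1.64 ± 0.06, 3 of 6 where 7.79% of measured genes rose. In the carbon-group metastasis over the carbon-irradiated primary 3 of 6 rose again, Rhox5 by 2.12 ± 0.02, Rap1gap by 2.04 ± 0.01 and Ambp by 1.27 ± 0.30, against 6.86% of genes, and Ambp did not pass with median centring. No member fell in either, where 0.905% and 1.93% of genes did. Slc7a3 stood at 0.13 ± 0.38 and -0.14 ± 0.06 and Hmga2 at 0.58 ± 0.12 and 0.20 ± 0.10, and neither passed. Car6 stood at 0.64 ± 0.05 and 0.69 ± 0.01 and passed with scaling between arrays. The second Rap1gap probe, at or near background in the irradiated primaries, gave 0.14 and 0.36, and the mean of both probes was 0.89 and 1.20, so that the gamma call was lost with it.

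Values of 30 skeletal muscle markers are set beside the members, since the primary grew in the leg and the share of muscle in the dissected RNAs was not measured. Of these, 25 were well above background in every channel of the gamma-irradiated primary, 29 in the carbon-irradiated primary and 29 in the unirradiated primary. Of 29 measured markers 21 fell in the gamma-irradiated primary (median -2.06) and 10 in the carbon-irradiated primary (median -0.85), none rising in either. The fast myosin heavy chain Myh1 stood at -2.12 ± 0.15 and -1.93 ± 0.04, the muscle creatine kinase Ckm at -2.17 ± 0.10 and -1.54 ± 0.03, and desmin, Des, the muscle intermediate filament, at -2.92 ± 0.09 and -1.005 ± 0.258. Muscle markers were thus low in the same RNAs as the members. In the carbon-irradiated primary over the gamma-irradiated primary 14 of 29 muscle markers rose and none fell (median 0.95), and 0 of 6 members rose (median 0.08). The members had been picked for low ratios after both radiation types, so their value near 0 here follows in part from the choice and does not set them apart from muscle. Sarcolipin, Sln, which restrains calcium uptake in muscle, stood at 2.25 ± 0.05 there and the fast-fibre actinin Actn3 at 2.02 ± 0.02, against 0.18 ± 0.06 for Car6.

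In the carbon-group metastasis over the carbon-irradiated primary 19 of 29 muscle markers fell (median -1.61), and no member fell and 3 rose (member median 0.98). In the gamma-group metastasis over the gamma-irradiated primary 10 of 27 muscle markers fell and 3 rose (median -0.48), and no member fell (member median 1.14). The irradiated primaries, in which the members were picked as low, are the lower term of both comparisons, so the members' direction was favoured by the choice. Over the unirradiated primary muscle markers were low in every metastasis: 20 of 29 fell in the gamma-group metastasis, 24 of 29 in the carbon-group metastasis and 23 of 29 in the unirradiated metastasis. Slc7a3 and Car6 were low in those RNAs too. The part of muscle RNA in the ratios of these 2 genes was not tested.

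**Figure D4:**
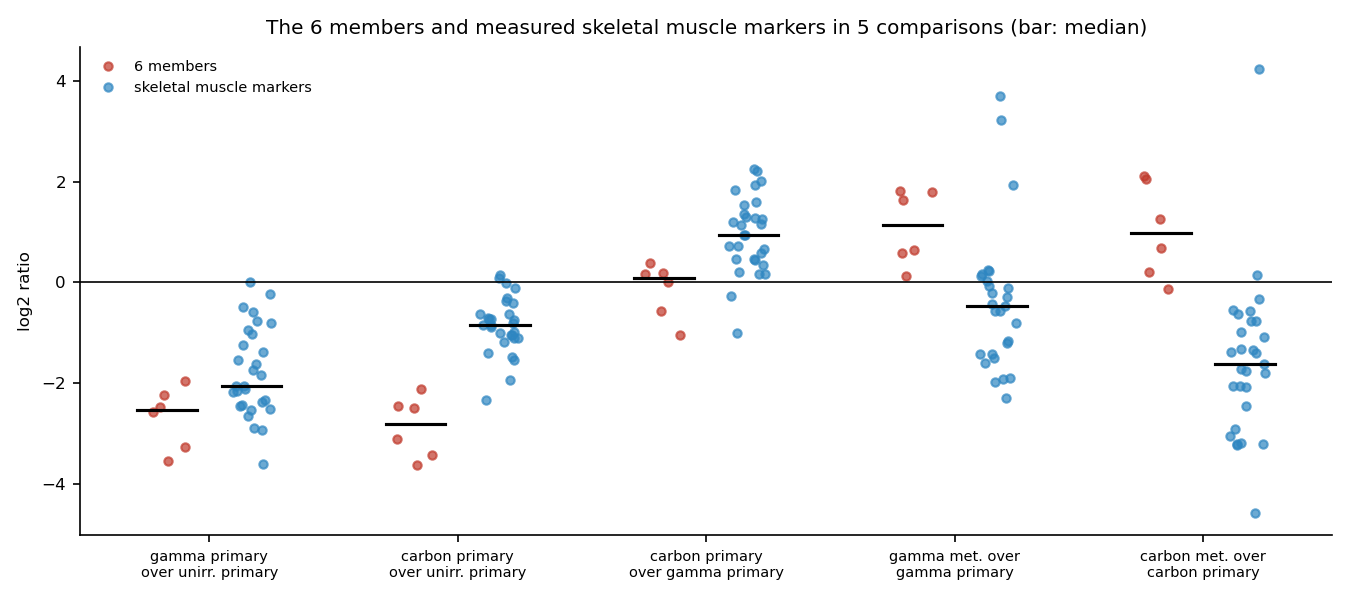
Log2 ratios of the 6 members and of the measured skeletal muscle markers in 5 comparisons, one point per gene and a bar at the median. Both sets have medians below 0 in each irradiated primary over the unirradiated primary, and in the carbon-irradiated over the gamma-irradiated primary the member median is 0.08 and the muscle median 0.95, the members having been picked on the first 2 comparisons.

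The genes whose 5 ratios over the unirradiated primary lay closest to a member's were found among 12923 measured and named genes, by the mean absolute difference over the 5 RNAs. For Car6 these were the muscle genes Mybpc2 (0.66), Ckm (0.67) and Des (0.72), and for Slc7a3 they were Car6 (0.76), Myh1 (0.97) and Des (1.02). Both lists hold muscle genes, although these 2 members are not known for a role in muscle. In the carbon-irradiated primary the muscle genes lay well above them, where Car6 stood at -3.12 and Slc7a3 at -3.43. There Mybpc2 stood at -1.41, Ckm at -1.54, Myh1 at -1.93 and Des at -1.005. Of the 5 ratios compared, those of the 2 irradiated primaries had chosen the members. For the other members none of the nearest was a muscle marker. Rhox5 lay nearest to Cth, the cystathionine gamma-lyase that makes cysteine (0.70), the cystine carrier Slc7a11 (0.73) and the teneurin Tenm4 (0.76). Hmga2 lay nearest to Fam160a1 (0.48), to Aldh1l2, a mitochondrial enzyme of folate metabolism (0.56), and to Crabp1, a retinoic acid binding protein (0.56).

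Ambp and Rap1gap had the closest companions. Ambp lay nearest to Epgn, the growth factor epigen (0.36), which stood at -1.78 in the gamma-irradiated primary, -2.04 in the carbon-irradiated primary and 0.34 in the unirradiated metastasis. It was followed by the prolactin family gene Prl6a1 (0.50) and Arl4d (0.51). Rap1gap lay nearest to Mtcl1, a microtubule crosslinking factor (0.30), the tetraspanin Tspan12 (0.35) and Krt18, a keratin of simple epithelia (0.45). Tspan12 stood at -2.34 and -1.92 in the irradiated primaries and between -0.07 and 0.11 in the metastases. Between members the smallest distance was that of Slc7a3 and Car6 (0.76) and the largest that of Slc7a3 and Ambp (2.14), while the nearest pattern of Ambp lay at 0.36 and that of Rap1gap at 0.30.

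Amino acid transport and arginine use, the setting of Slc7a3, was followed in 22 genes, of which 15 were measured. In each irradiated primary 3 fell, Slc7a3 itself, Slc7a11 (-1.71 ± 0.09 after gamma rays, -1.79 ± 0.01 after carbon ions) and Slc7a5, the large neutral amino acid carrier (-1.12 ± 0.04 and -1.14 ± 0.11). The median of the list was -0.19 and -0.24, against 0.02 for all measured genes in both. Among other carriers of arginine, Slc7a1 stood at -0.24 ± 0.21 and -0.29 ± 0.05 and Slc7a2 at 0.04 ± 0.11 and 0.34 ± 0.02, and neither fell. Arginase 1, Arg1, rose by 1.63 ± 0.15 after gamma rays, and no measured gene of the list rose after carbon ions. In the metastases of irradiated mice over the unirradiated metastasis Arg2, the mitochondrial arginase, was the other member of the list that fell, by 1.20 ± 0.02 in the gamma-group metastasis and 1.32 ± 0.03 in the carbon-group metastasis.

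Of the 16 carbonic anhydrases on the array 2 fell in each irradiated primary, of 10 measured after gamma rays and 9 after carbon ions. Beside Car6 this was Car3, which is also a muscle marker, at -1.62 ± 0.04 and -1.10 ± 0.12. The median of the list was 0.02 and 0.23. Car2, the cytosolic form, stood at 0.54 ± 0.25 and 0.37 ± 0.27, and Car9 and Car12, the membrane forms that hypoxia induces, at -0.07 ± 0.07 and 0.37 ± 0.09 after gamma rays and at 0.41 ± 0.01 and 0.70 ± 0.12 after carbon ions. In the unirradiated metastasis Car9 fell by 2.74 ± 0.03 and Car12 by 1.59 ± 0.01 over the unirradiated primary, beside Car6 and Car3. Over that metastasis Car9 rose by 1.32 ± 0.06 in the gamma-group metastasis and by 2.66 ± 0.26 in the carbon-group metastasis, where Car6 stood at 0.28 and 0.47.

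Of the Rhox cluster 8 genes were on the array and 2 were measured, Rhox5 and Rhox4e, its neighbour on the chromosome. Rhox4e stood at -0.16 ± 0.09 and -0.24 ± 0.09 in the gamma- and carbon-irradiated primaries, and the other 6 were not well above background in either RNA of those comparisons. For Ambp, 5 and 6 of 11 genes of bikunin, its heavy-chain partners and hyaluronan synthesis were measured in the 2 irradiated primaries, and Ambp alone fell. Has2, a hyaluronan synthase, stood at 0.96 ± 0.02 and 0.75 ± 0.02. Among 13 genes of liver and serum proteins 3 were measured in the irradiated primaries, and Ambp was the only one of these 3 that fell. In the unirradiated metastasis Itih4, a heavy-chain relative, rose by 1.47 ± 0.05.

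The Hmga2 list had 13 genes on the array, Hmga proteins and genes of fetal tissue, not all of them let-7 targets. Of these, 2 of 9 measured fell after gamma rays and 2 of 10 after carbon ions. The second gene was the imprinted RNA H19, at -1.34 ± 0.03 and -1.10 ± 0.03. Igf2, its imprinted neighbour, stood at -0.95 ± 0.15 and -0.58 ± 0.11. Igf2bp2, an RNA-binding protein, rose by 1.12 ± 0.04 after gamma rays, and no measured gene of the list rose after carbon ions. The paralog Hmga1 stood at -0.54 ± 0.71 and -0.80 ± 0.73, with SDs about as large as the values. In the carbon-group metastasis over the unirradiated one Igf2 fell by 1.35 ± 0.02, as did Hmga2.

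Of 19 genes of Rap1 and its regulators 18 were measured in each irradiated primary, 2 falling after gamma rays and 1 after carbon ions. The second after gamma rays was Rapgef3, an activator of Rap1 that senses cyclic AMP (-1.01 ± 0.01, against -0.43 ± 0.09 after carbon ions). The paralog Rap1gap2 stood at -0.15 ± 0.12 and -0.17 ± 0.02, and the GTPases Rap1a and Rap1b at -0.14 ± 0.46 and -0.26 ± 0.10 after gamma rays. The median of the list was -0.15 after gamma rays and -0.19 after carbon ions, and of the measured regulators none stood lower than Rap1gap in either. Among keratinocyte markers, whose median was near 0, the simple keratin Krt19 fell by 1.58 ± 0.03 after gamma rays and 1.45 after carbon ions. Krt18, near to Rap1gap in pattern, fell by 1.65 ± 0.35 after gamma rays and stood at -1.20 after carbon ions.

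The members sit on 3 chromosomes, with Car6, Ambp and Rap1gap on chromosome 4, Slc7a3 and Rhox5 on X and Hmga2 on 10. On chromosome 4 the median ratio of 834 measured genes was 0.04 after gamma rays, with 1.20% lower, and that of 845 genes 0.03 after carbon ions, with 1.06% lower. On X the medians were 0.01 and -0.02. The 10 nearest measured genes around each member, 5 on either side in RefSeq's order, had medians between -0.20 and 0.26. None of the 10 fell around Slc7a3, Rhox5, Ambp or Hmga2 in either irradiated primary, and next to Hmga2 Msrb3, a methionine sulfoxide reductase, rose after carbon ions (1.42) and stood at 1.06 after gamma rays. Around Car6 the mitochondrial carrier Slc25a33 fell after gamma rays (-1.24) and stood at -0.83 after carbon ions, and around Rap1gap the adaptor Sh2d5 stood at -1.24 after both and fell. Dlg3 and Il2rg, next to Slc7a3 on its 2 sides, stood at 0.69 and -0.24 after gamma rays, where Slc7a3 stood at -3.54.

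**Figure D5:**
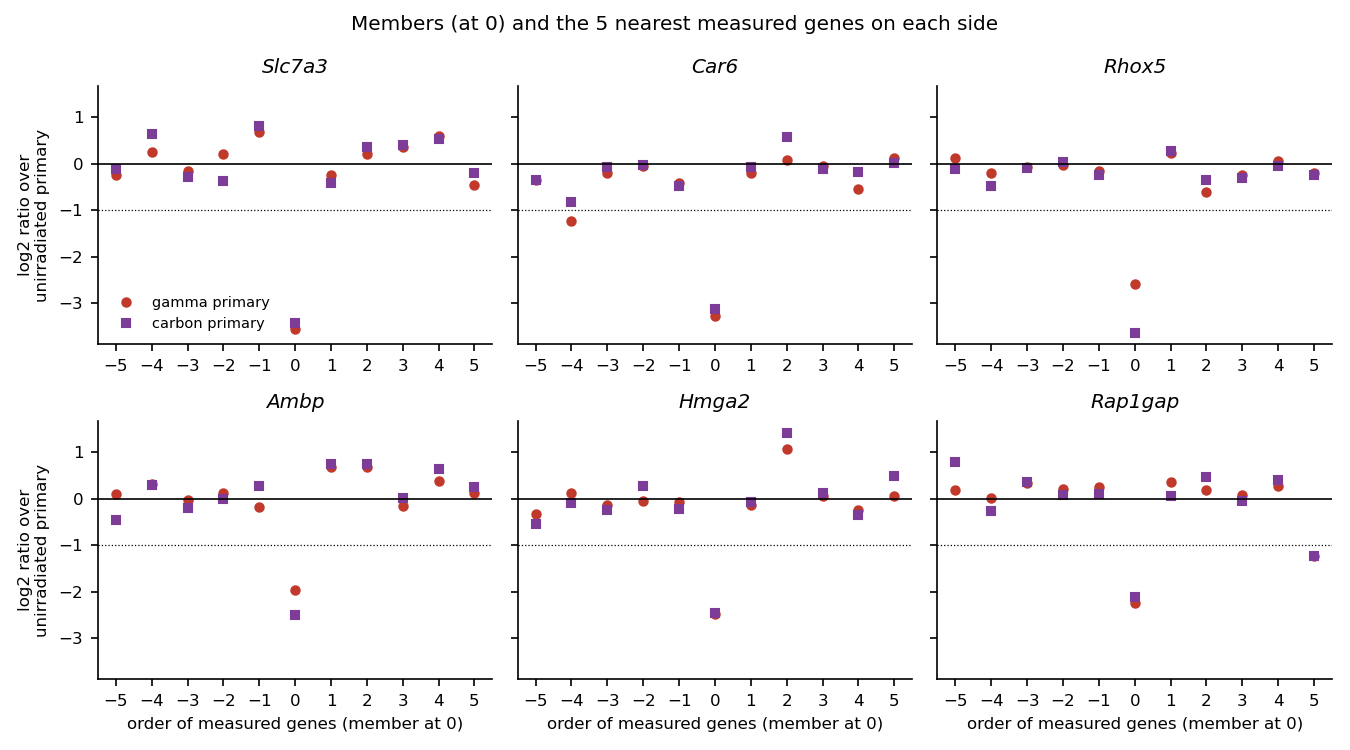
Log2 ratio over the unirradiated primary of each member (at 0 on the horizontal axis) and of the 5 nearest measured genes on either side, in order along the chromosome, circles for the gamma-irradiated and squares for the carbon-irradiated primary. Each member lies at -1.96 or lower, and of its neighbours only Slc25a33 after gamma rays and Sh2d5 after both lie below -1, while Msrb3 near Hmga2 lies above 1 after both.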

How the data were processed

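Gene expression was measured on 12 two-colour Agilent mouse arrays of 6 RNAs. The array design was 014868, and the scans had been read by Feature Extraction 9.1.3.1 with its protocol GE2-v5_91_0806, per the file headers. Intensity values as deposited are each spot's mean signal and median local background, not normalized, and the deposited processed signal intensity had been background-corrected and dye-normalized, as the headers record. A log10 ratio of Cy5 over Cy3 from those signals was also deposited, and the authors' value table held the same log10 ratios within 0.005. Any further processing is not stated in the sources used.

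Ratios were computed from the mean signals in R 4.3.3 with limma 3.58.1, using normexp with an offset of 50 and loess within arrays with controls at weight 0, and turned by the dyes in the labels. Median signals per channel were 93.1 to 147 over a background of 43 to 62, no spot was saturated, and 16 to 58 flagged spots per array were left out. Spots were averaged per probe, and the brightest probe stood for a gene. A gene was measured where at least 1 of the 2 compared RNAs was well above background in both orientations. Probes were named through RefSeq's table of GRCm38.p6 (22939 by accession, 6669 by symbol, 3108 by an older symbol, 8458 by the file's own name). Metastases were compared with each other, and with irradiated primaries, by subtracting ratios of like orientation, in which dye effects cancel, so those SDs leave dye error out. Both arrays of a dye swap shared 1 of 3 slides.

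The labels give 1 RNA per condition, so no test across samples was possible, and the number of arrays limits the precision. Normalization was tested on simulated data. The members and gene lists were chosen with earlier results of these data known. Genes named beside the members were those of each list with the largest ratios (at most 4), paralogs, the 3 nearest patterns and chromosome neighbours. Alternatives are given in the closing section. Later steps used Python 3.11.15 and pandas 2.3.3.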

Additional observations from a re-analysis of the deposited data

Results flagged for a closer look

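For Car6, Rhox5 and Rap1gap the ratios of the irradiated group over the unirradiated RNA had opposite signs in primaries and metastases, on both arrays of each comparison. The metastases themselves had not been irradiated, and the difference between sites was not tested. For Car6 the gamma-group metastasis stood at 0.28 over the unirradiated metastasis, against -3.26 for the gamma-irradiated primary over the unirradiated primary, and the carbon-group metastasis stood at 0.47, against -3.12 for the carbon-irradiated primary. For Rhox5 the metastasis value was 1.01 for gamma rays and 0.27 for carbon ions, against -2.58 and -3.63 in primaries. For Rap1gap the metastasis value was 0.10 for gamma rays and 0.62 for carbon ions, against -2.23 and -2.12 in primaries, and the gamma value turned below 0 with median centring (-0.09). None of the metastasis values passed in both orientations. The dim second Rap1gap probe gave -0.21 for gamma rays and 0.004 for carbon ions. The primary values had chosen the members, so an opposite sign in metastases sets a picked value against one that was not picked.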

How the results depend on the processing

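The counts of members lower in the gamma-irradiated primary (6), the carbon-irradiated primary (6) and the 3 metastases over the unirradiated primary stayed within 1.5 times under all alternatives tried: an offset of 0, Agilent's processed log ratio, median centring, scaling between arrays, the authors' value table, both RNAs above background, no filter, the mean of all probes, and each dye orientation alone. In the carbon-irradiated over the gamma-irradiated primary the count of 0 became 1, Rhox5, with an offset of 0 (-1.20), the processed log ratio (-1.29), scaling between arrays (-1.33) and the authors' value table (-1.29), and ran from 0 to 1 with one orientation left out. In the carbon-group over the gamma-group metastasis it became 1, Ambp, with an offset of 0 (-1.29), the processed log ratio (-1.38) and the authors' value table (-1.39), and again 0 to 1 by orientation. In the gamma-group over the unirradiated metastasis the count of 2 became 1 with scaling between arrays, where Ambp stood at -1.02. The largest loop difference, 0.272 for Slc7a3, was 0.591 with the processed log ratio, 0.542 with scaling, 0.588 with the authors' value table and 0.320 to 0.659 with one orientation left out. The cause of these changes was not tested. Of the single-gene values 555 stayed within the array SD and on their side of the rule, 77 moved, 23 came to pass it, 5 no longer passed, and 0 turned sign after a call. Limits: 1 RNA per condition gives no spread between animals. Every ratio to the unirradiated primary rests on that 1 RNA. Dim probes carry compressed ratios. No paired analysis was possible because the labels give a single replicate number.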

Other observations

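Because Slc7a11, Cth and Aldh1l2 lay close to members in pattern, 37 genes that the amino acid response factor Atf4 is known to govern were listed after these values had been seen, and are described without a test. Of 35 measured, 15 fell in the gamma-irradiated primary (median -0.79), where 1.26% of all measured genes fell. In the carbon-irradiated primary 9 fell (median -0.79), where 1.07% did. In each 1 rose, Ddit4, an inhibitor of mTOR signalling (1.41 and 1.90). The genes that fell included the asparagine synthetase Asns (-1.26 and -1.28), the serine phosphatase Psph (-1.29 and -1.59), the gamma-lyase Cth (-1.74 and -1.69) and the folate enzyme Aldh1l2 (-2.01 and -1.99). Slc7a11, Cth and Aldh1l2 had prompted the list, so their fall was known beforehand. The values of the other genes were also at hand when the list was drawn up. The counts in primaries and metastases therefore describe the list and support nothing. Atf4 itself stood at -0.79 and -0.85.

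The same list was low in the metastases over the unirradiated primary, with 13 of 35 lower in the gamma-group metastasis (median -0.81), 9 of 36 in the carbon-group metastasis (median -0.68) and 11 of 34 in the unirradiated metastasis (median -0.92). Among all measured genes 1.1%, 1.03% and 1.69% fell there. Stc2, a secreted glycoprotein, stood at -2.59 in the gamma-group, -1.62 in the carbon-group and -2.69 in the unirradiated metastasis. Over the unirradiated metastasis 0 of 34 fell in either metastasis of an irradiated mouse, with medians of 0.02 and 0.15. Of all measured genes 1.4% fell in the gamma-group and 2.37% in the carbon-group metastasis. All 5 ratios share the unirradiated primary RNA, so whether that single RNA was high or the others low cannot be told apart.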
